A study of Mus musculus with 2 samples.

Results

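The 10 genes described here code for the adherens junction and the proteins that tie it to actin: the cadherins Cdh5 and Cdh2, the catenins Ctnnb1, Ctnna1, Ctnnd1 and Jup, and the actin linkers Vcl, Actn1, Actn4 and Afdn. They were found by gene symbol and make up 10 of the 19059 genes counted. The genes, and the split of endothelial cells used below, were selected on earlier ratios between the same libraries, so those ratios are given as a description. The counts came from hippocampi of C57BL/6 mice that were 21 months old at the start. The mice were put for 3 months on control chow or on chow with 0.05% tomatidine, a small molecule from the tomato plant. The cohort was of both sexes, but the sex of the mice in these libraries was not stated. Hippocampi of 4 mice were pooled for each group, so there was 1 control library and 1 tomatidine library and no replicate of either. No test between the groups was therefore possible, and a difference between the treatments cannot be told apart from one between pools or library preparations.

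At an adherens junction the outer domains of cadherins on neighbouring cells bind each other, while their tails bind beta-catenin or plakoglobin and p120-catenin. Alpha-catenin joins this complex to actin, and vinculin, alpha-actinins and afadin strengthen that link when the junction is under tension. In brain vessels VE-cadherin, the product of Cdh5, holds endothelial cells together, and N-cadherin, the product of Cdh2, forms contacts of endothelial cells with pericytes and of neurons and astrocytes with each other.

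Cells were fixed and transcripts were counted through probes, with unique molecular identifiers (UMIs) marking single molecules. The control library held 279525565 UMIs in 15912 cells and the tomatidine library 259059908 UMIs in 15185 cells, of which 15115 and 14502 cells passed the filters. A total of 292 barcodes occurred in both libraries. Cells were grouped with the 10 genes left out of the clustering, and classes were called "-like" from their markers. UMIs were summed over the cells of a class in a library and are given per 1000000 UMIs of that class (CPM), with exact 95% intervals that cover counting error only. Probes differ in efficiency, so levels are compared within a gene and not between genes.

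The endothelial-like class held 290 control and 393 tomatidine cells with a median of 6357.5 and 4799 UMIs. The 7 endothelial markers measured, among them Cldn5 and Flt1, summed to 9880 CPM in the control and 10689 CPM in the tomatidine library, against 49.0 and 60.2 CPM in all other cells. These barcodes were not free of other RNA. The 6 pericyte genes (Pdgfrb, Kcnj8, Abcc9, Vtn, Rgs5 and Notch3) were all present and summed to 5856 and 6220 CPM, against 79.8 and 118 CPM in all other cells, and 80.7% of control and 77.1% of tomatidine cells had at least 1 such UMI. The 9 astrocyte markers summed to 7627 CPM in the control and 5772 CPM in the tomatidine library, against 2732 and 3213 CPM in all other cells.

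Of the 10 genes, Cdh5 was the most restricted to vessels. Cdh5 (chr8:104101625-104144511 in mm10, plus strand) reached 317 CPM (299 to 337) in control and 345 CPM (327 to 364) in tomatidine endothelial-like cells. Meningeal-like cells, the class of fibroblast markers, followed with 122 CPM (105 to 141) and 134 CPM (120 to 149), and every other class of at least 50 cells in each library lay at or below 5.56 CPM. At least 1 Cdh5 UMI was found in 67.6% of control and 69.7% of tomatidine endothelial-like cells. In microglia-like cells, which should lack the gene, that share was 0.910% and 0.915% at a median of 3313 and 3093.5 UMIs. At an equal depth of 1500 UMIs a cell, a depth that 47 control and 63 tomatidine cells did not reach, the endothelial-like shares were 37.5% and 41.1%, against 0.392% and 0.274% of microglia-like cells.

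Cdh2 (chr18:16588877-16809246, minus strand) was higher in neuron-like, astrocyte-like, oligodendrocyte precursor-like and ependymal-like than in endothelial-like cells. Its control level was 261 CPM (254 to 268) in the thalamic or other subcortical neuron-like class, 244 CPM (234 to 254) in astrocyte-like cells, 222 CPM (206 to 240) in oligodendrocyte precursor-like cells and 212 CPM (195 to 229) in ependymal-like cells, and neighbours in that order had overlapping intervals. Endothelial-like cells held 130 CPM (118 to 143). Oligodendrocyte-like cells had 69.6 CPM and border macrophage-like cells 37.4 CPM in the control library. Mural-like cells, 47 control and 60 tomatidine cells and so too few for the classes compared, held 271 CPM (210 to 344) and 160 CPM (113 to 219). Without the cell that held most Cdh2 UMIs in each library, they were at 217 and 140 CPM.

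Among the catenins, Ctnnb1 (chr9:120929216-120960507, plus strand), which codes for beta-catenin, was highest in endothelial-like cells in both libraries, with 842 CPM (811 to 873) in the control and 990 CPM (958 to 1022) in the tomatidine library. The thalamic or other subcortical neuron-like class was next, at 533 and 400 CPM. Ctnna1 (chr18:35118859-35254779, plus strand), the alpha-catenin of epithelia and endothelia, was also highest there, with 295 and 302 CPM, followed by ependymal-like cells at 216 and 211 CPM. It was lowest in excitatory neuron-like cells, with 20.2 and 22.2 CPM. Ctnnd1 (chr2:84600071-84650765, minus strand), which codes for p120-catenin, stood at 236 and 225 CPM in endothelial-like cells and at 159 and 169 CPM in oligodendrocyte precursor-like cells. Jup (chr11:100368958-100397763, minus strand), the gene of plakoglobin, was the exception. Oligodendrocyte-like cells held 378 CPM (370 to 387) and 360 CPM (351 to 370) of it, 1.86-fold and 1.79-fold the level in endothelial-like cells, which came next with 204 and 201 CPM. Lower Jup levels in other glia stood beside RNA of oligodendrocytes: microglia-like cells held 136 and 123 CPM of Jup with 13925 and 10254 CPM of the 9 oligodendrocyte markers, and astrocyte-like cells 61.0 and 60.6 CPM of Jup with 2794 and 2675 CPM of those markers.

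Among the actin linkers, endothelial-like cells led the classes compared for Vcl and Actn4 in both libraries, for Actn1 only in the tomatidine library and for Afdn in neither. Vcl (chr14:20929398-21033676, plus strand), the gene of vinculin, was at 239 CPM (223 to 256) and 279 CPM (262 to 296) in endothelial-like cells, then at 200 and 190 CPM in ependymal-like cells. Oligodendrocyte-like cells held only 10.1 and 14.5 CPM. Actn4 (chr7:28893248-28962340, minus strand), one of the nonmuscle alpha-actinins, was at 422 and 481 CPM in endothelial-like cells and at 234 and 215 CPM in oligodendrocyte-like cells. Actn1 (chr12:80167547-80260371, minus strand), the other nonmuscle alpha-actinin, was shared with neurons. Its control level was 142 CPM (139 to 144) in excitatory neuron-like and 128 CPM (116 to 141) in endothelial-like cells, whose intervals overlapped, and in the tomatidine library endothelial-like cells were ahead with 178 CPM (165 to 192) against 139 CPM (136 to 142). Afdn (chr17:13760539-13906150, plus strand), which codes for the nectin-binding protein afadin, was highest in meningeal-like (223 and 232 CPM) and endothelial-like cells (201 and 227 CPM), whose intervals overlapped. Choroid plexus-like cells, of which the control library held 359 and the tomatidine library 35, had more Actn1 than any class compared, at 186 and 296 CPM. Mural-like cells, with 47 control and 60 tomatidine cells, were under the 50 cells per library asked of a class. Their Vcl level was the highest of any class, at 618 CPM (524 to 723) and 954 CPM (834 to 1087).

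**Figure D1:**
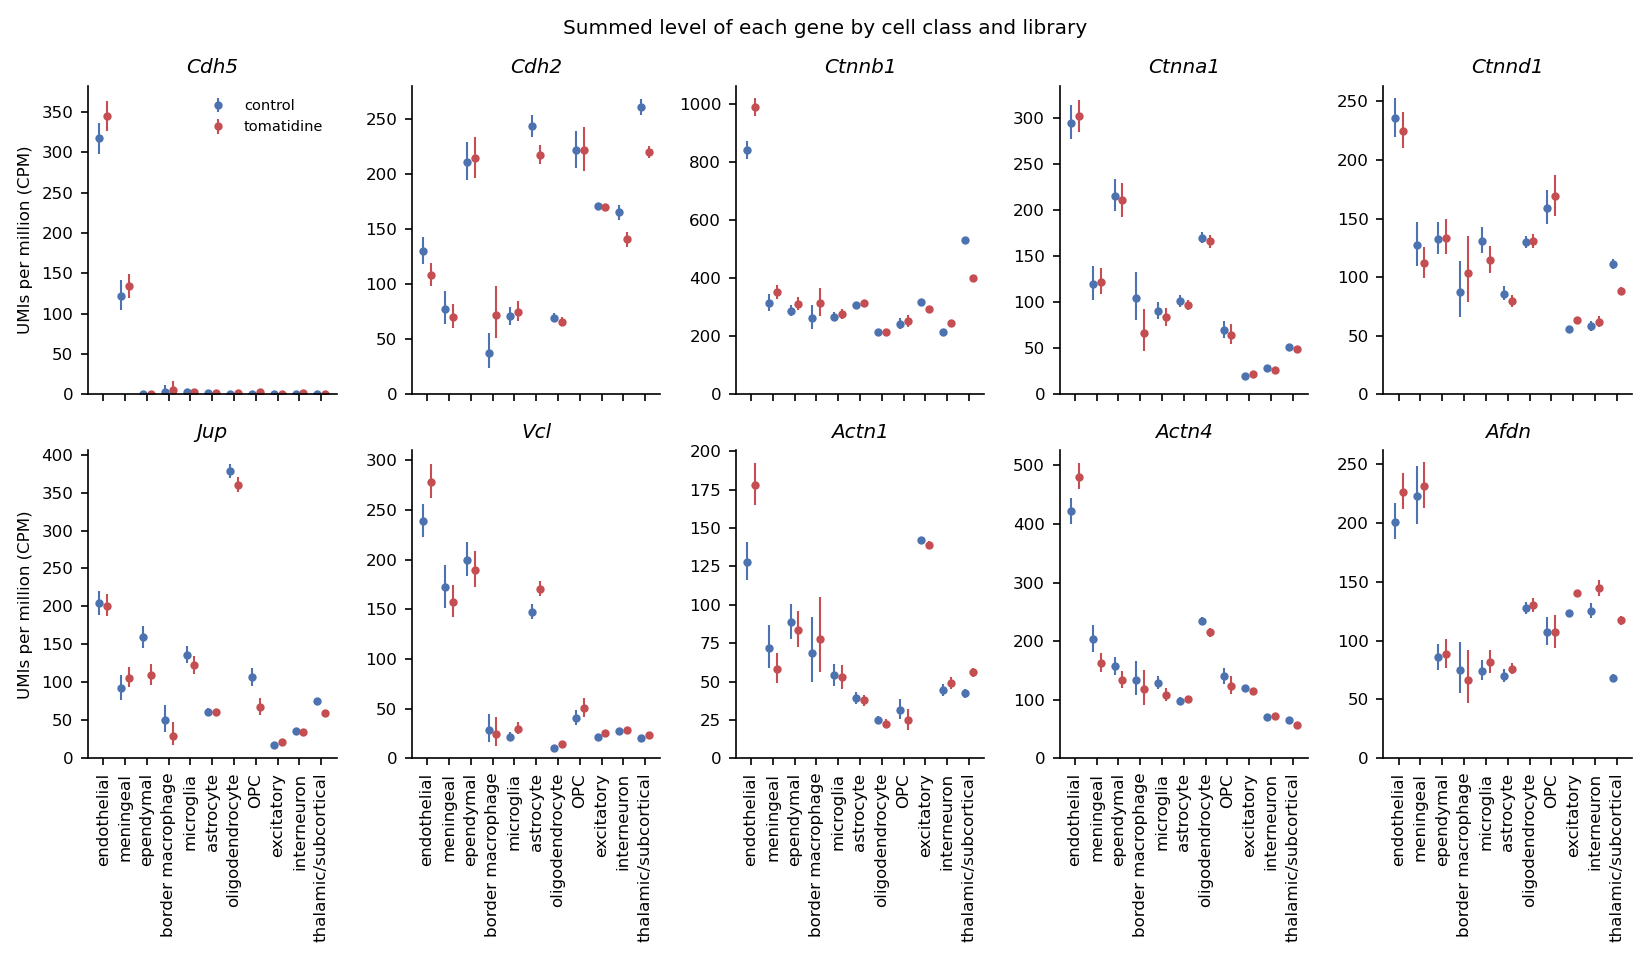
CPM of each of the 10 genes (vertical axis, one panel per gene, each with its own scale from 0) in the 11 classes with at least 50 cells in each library; points are the control (blue) and tomatidine (red) library, bars exact Poisson 95% intervals of the summed UMIs. Cdh5 stands above 300 CPM in endothelial-like cells and near 0 outside vessels and meninges, Jup peaks in oligodendrocyte-like cells at 378 and 360 CPM, and Cdh2 lies lower in endothelial-like cells than in astrocyte-like cells.

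The central comparison was that of the tomatidine with the control library within endothelial-like cells, since the study asked whether tomatidine acts on the endothelium of the blood-brain barrier. The differences were small for most members, and no single cell held more than 6.66% of a member's UMIs. Actn1 was higher in the tomatidine library by 0.47 on the log2 scale (0.30 to 0.65), from 429 UMIs in the control to 676 in the tomatidine library. Ctnnb1 was higher by 0.23 (0.16 to 0.30), with 2818 and 3758 UMIs, Vcl by 0.22 (0.09 to 0.35), with 801 and 1058 UMIs, Actn4 by 0.19 (0.09 to 0.29), with 1412 and 1826 UMIs, and Afdn by 0.17 (0.03 to 0.32), with 673 and 861 UMIs. Their intervals left out 0.

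The cadherins went apart in this comparison. Cdh5 had a log2 ratio of 0.12 (0.00 to 0.24), from 1063 and 1310 UMIs. Cdh2 was lower in the tomatidine library, from 130 to 109 CPM, with a log2 ratio of -0.26 (-0.46 to -0.06) from 436 and 413 UMIs. Beside this, the astrocyte marker sum in the same cells was lower too (7627 against 5772 CPM), and Cdh2 was at 244 CPM in control astrocyte-like cells. The pericyte genes summed to 5856 CPM in the control and 6220 CPM in the tomatidine endothelial-like cells. In mural-like cells Cdh2 was at 271 and 160 CPM. The part of astrocyte or pericyte RNA in the Cdh2 ratio was not tested.

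For the other catenins the interval included 0. The log2 ratio was 0.03 (-0.09 to 0.16) for Ctnna1, -0.07 (-0.21 to 0.07) for Ctnnd1 and -0.02 (-0.17 to 0.13) for Jup. The share of cells with a Jup UMI was 61.0% in the control and 52.9% in the tomatidine library, but with every cell reduced to 1500 UMIs it was 24.4% and 24.1%. Ctnna1 and Ctnnd1 were also found in fewer tomatidine cells before thinning, in 65.4% against 73.1% and in 60.6% against 69.0%, and at 1500 UMIs the shares were 35.9% against 37.6% and 28.8% against 30.4%.

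A gene was counted as past the fold when its CPM ratio was at least 1.2 in either direction and it had at least 100 UMIs in the class. All 10 members had that many UMIs. Only 1 of the 10, Actn1, was at least 1.2-fold higher in the tomatidine library, where 12.7% of 10188 genes were, and 0 were at least 1.2-fold lower, where 10.2% of genes were. The member count was thus near the background. Cdh2 and Ctnnb1 lay just short of the limit, at 0.835-fold and 1.18-fold. The median log2 ratio over the members was 0.15, with 7 positive and 3 negative values, and over all 10188 genes it was 0.02. The ratios depended on which cells were summed. With stricter cell thresholds (226 and 316 cells) Actn1 was at 0.12, and in the 56 control and 90 tomatidine cells without a pericyte UMI Cdh2 was at 0.30, Vcl at 0.78, Actn1 at 0.71 and Actn4 at 0.67. With a gate on endothelial markers (62 and 123 cells) the member median was -0.015 and Cdh5 was at -0.19, both with the sign turned. The cells without a pericyte UMI held 156938 control and 247519 tomatidine UMIs, and the gated cells 280476 and 509993. The whole class held 3348556 and 3796940 UMIs, so counting error was larger in these smaller groups of cells.

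**Figure D2:**
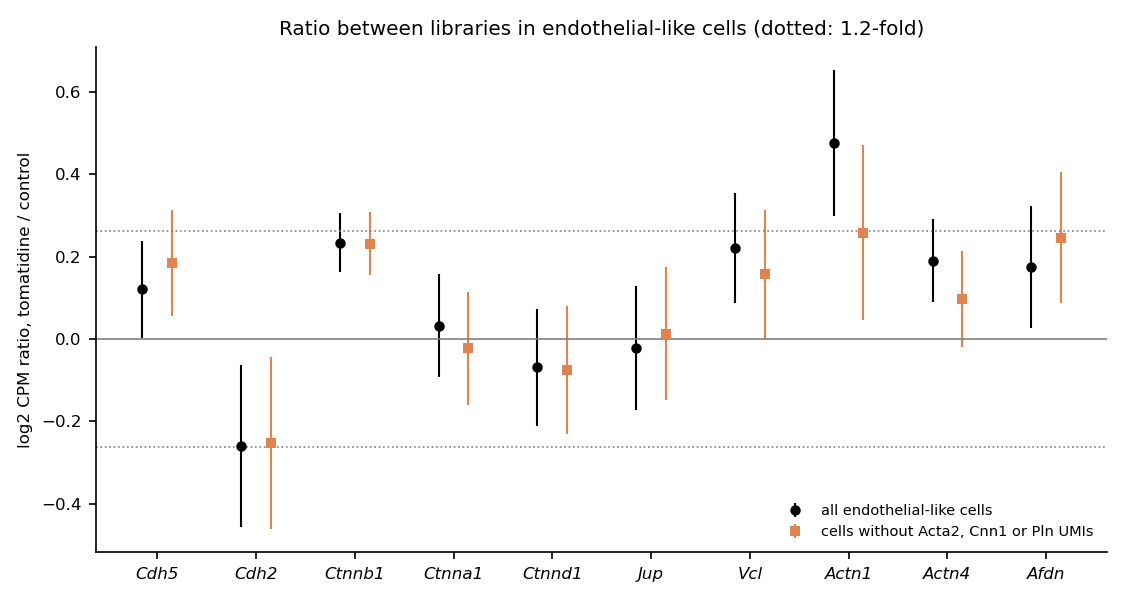
Log2 CPM ratio of the tomatidine over the control library for each gene (vertical axis) in all endothelial-like cells (circles) and in those without a UMI of Acta2, Cnn1 or Pln (squares), with exact conditional binomial 95% intervals; dotted lines mark 1.2-fold. Actn1 moves from 0.47 to 0.26 when the cells with contractile UMIs are left out, while Ctnnb1 stays at 0.23.

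Acta2, Cnn1 and Pln code for smooth muscle actin, calponin and phospholamban and belong to the contractile program of arterial smooth muscle. At least 1 UMI of them was found in 15 of 290 control endothelial-like cells, or 5.17% (exact binomial interval 2.92 to 8.39), and in 44 of 393 tomatidine cells, or 11.2% (8.25 to 14.7). Their sum in the class was 144 CPM in the control and 456 CPM in the tomatidine library. Cells with these UMIs were deeper than those without, with a median of 21343 against 6137 UMIs in the control and of 8745 against 4616 in the tomatidine library.

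At the edge of the split, 2 control and 10 tomatidine cells had exactly 1 contractile UMI. Vcl was at 215 CPM in these control cells and 202 CPM in these tomatidine cells, from only 6 and 32 UMIs, against 211 and 235 CPM in cells with 0 such UMIs. Actn1 was at 215 and 120 CPM, from 6 and 19 UMIs, against 113 and 136 CPM in cells with 0. Cells with 2 or more contractile UMIs, 13 control and 34 tomatidine cells, held 456 and 548 CPM of Vcl and 233 and 436 CPM of Actn1.

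Within each library Vcl, Actn1 and Actn4, 3 of the 4 actin linkers, were higher in the cells with contractile UMIs. Vcl was at 440 CPM with and 211 CPM without them in the control library, 2.08-fold (log2 1.06, 0.81 to 1.30), and at 470 against 235 CPM in the tomatidine library, 2.00-fold (log2 interval 0.81 to 1.19). Actn1 was at 232 against 113 CPM (2.04-fold) in the control and at 365 against 136 CPM (2.69-fold) in the tomatidine library. Actn4 was at 650 against 390 CPM (1.67-fold) and at 764 against 417 CPM (1.83-fold). The difference did not rest on 1 cell: without the cell that held most UMIs of each gene, the cells with contractile UMIs had 431 and 465 CPM of Vcl, 199 and 318 CPM of Actn1 and 610 and 750 CPM of Actn4 in the control and tomatidine library.

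It was also seen with the members' UMIs thinned to equal depth, though the split itself was made at full depth. Of the cells with contractile UMIs, 3 of 15 control and 10 of 44 tomatidine cells did not reach 1500 UMIs and were left out. Thinned to 1500 UMIs, 44.3% of control cells with contractile UMIs would have a Vcl UMI against 23.5% of those without, and in the tomatidine library 42.8% against 27.6%. For Actn1 these shares were 33.4% against 16.5% and 35.9% against 19.9%.

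The other members did not differ in this way in both libraries. Ctnna1 had a log2 ratio of 0.04 (-0.25 to 0.31) in the control and of 0.30 (0.09 to 0.50) in the tomatidine library. Cdh2 was lower with contractile UMIs in both libraries, by a log2 ratio of -0.74 (-1.29 to -0.23) in the control and -0.50 (-0.93 to -0.09) in the tomatidine library, and was at 53.7 and 74.0 CPM there without the cell that held most Cdh2 UMIs, which gave 44.1% of those of the 15 control cells. Cdh5 had a log2 ratio of 0.25 (-0.00 to 0.50) in the control and -0.18 (-0.39 to 0.04) in the tomatidine library. Ctnnb1 had -0.17 (-0.34 to -0.00) and -0.10 (-0.22 to 0.02), and Ctnnd1 0.09 (-0.23 to 0.39) and 0.09 (-0.17 to 0.33). Afdn, an actin linker that also binds nectins, was at -0.02 (-0.38 to 0.31) in the control and -0.46 (-0.75 to -0.18) in the tomatidine library. Jup was at -0.24 (-0.61 to 0.11) and -0.37 (-0.67 to -0.08), beside a sum of the 9 oligodendrocyte markers of 1920 against 3580 CPM in the control and 1160 against 3014 CPM in the tomatidine library, whose part in the Jup ratio was not tested.

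In the control library 3 of 10 members, Vcl, Actn1 and Actn4, were at least 1.2-fold higher in the cells with contractile UMIs, where 21.2% of genes were, and 1, Cdh2, was lower, where 30.7% were. In the tomatidine library 4 members were higher, with Ctnna1 added at 1.23-fold, against 18.8% of genes, and 3 were lower, Cdh2, Jup and Afdn, against 33.9%. Of all genes, 2.00% had a higher ratio than Vcl in the control and 3.12% in the tomatidine library. For Actn1 these shares were 2.09% and 1.76%, for Actn4 4.74% and 4.10%, and for Afdn 46.1% and 79.5%. The split was known when these genes were chosen, so these places are a description.

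The 8 smooth muscle genes (Acta2, Tagln, Myh11, Cnn1, Pln, Des, Lmod1 and Actg2) include the 3 that make the split. The sum of the other 5 was 2920 CPM in control and 4582 CPM in tomatidine cells with contractile UMIs, where 0 of the 5 were at 0. In cells without, 1 of the 5 was at 0 and the sum was 97.1 and 123 CPM. Cldn5, an endothelial tight junction gene, was at 2241 and 2523 CPM in the cells with contractile UMIs and at 2527 and 3070 CPM in those without. Whether these barcodes held smooth muscle RNA beside an endothelial cell was not tested.

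**Figure D3:**
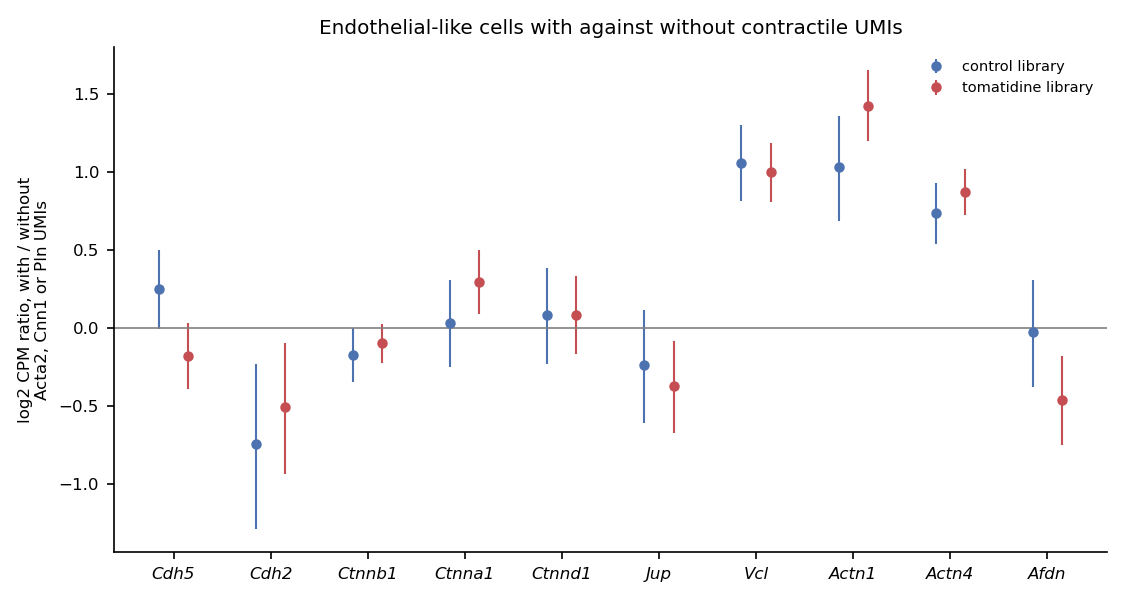
Log2 CPM ratio of endothelial-like cells with over those without a UMI of Acta2, Cnn1 or Pln for each gene (vertical axis), in the control (blue; 15 with, 275 without) and the tomatidine library (red; 44 with, 349 without), with exact conditional binomial 95% intervals. Vcl, Actn1 and Actn4 lie between 0.74 and 1.43 in both libraries, and the other members lie at or below 0.30.

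The sequences before the transcription starts of Vcl, Actn1 and Actn4 are shown because these are the members that were high together in cells with contractile UMIs. Each run covers the 250 bases before a start listed by RefSeq on GRCm38.p6, 5′ to 3′ on the strand of the gene, and capitals mark matches on either strand to the CArG box bound by serum response factor or to CATTCC, a TEAD motif.
Vcl promoter, chr14:20929148-20929397, plus strand: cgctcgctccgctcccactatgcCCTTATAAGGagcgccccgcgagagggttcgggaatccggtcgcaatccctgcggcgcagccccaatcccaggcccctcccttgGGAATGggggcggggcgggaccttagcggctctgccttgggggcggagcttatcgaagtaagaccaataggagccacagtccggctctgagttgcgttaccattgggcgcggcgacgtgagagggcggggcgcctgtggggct
Actn1 promoter, chr12:80260364-80260613, minus strand: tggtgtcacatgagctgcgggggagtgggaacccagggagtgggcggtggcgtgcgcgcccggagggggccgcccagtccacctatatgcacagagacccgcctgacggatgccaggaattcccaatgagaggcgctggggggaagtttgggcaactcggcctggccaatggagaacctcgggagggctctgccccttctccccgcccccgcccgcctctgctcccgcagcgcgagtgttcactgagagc
Actn4 promoter, chr7:28962333-28962582, minus strand: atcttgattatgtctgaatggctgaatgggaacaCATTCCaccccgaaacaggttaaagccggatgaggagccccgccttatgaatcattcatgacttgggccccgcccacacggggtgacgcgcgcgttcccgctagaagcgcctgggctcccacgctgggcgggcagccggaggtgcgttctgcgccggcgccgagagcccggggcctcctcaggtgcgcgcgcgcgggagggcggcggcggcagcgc

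Vcl had 1 CArG box, CCTTATAAGG, which began 227 bases before the start, and 1 CATTCC match, read on the other strand as GGAATG, which began 143 bases before it. Actn4 had 1 CATTCC match that began 216 bases before its start, and Actn1 had neither motif. A CArG box was found in 1.47% and CATTCC in 12.6% of the 32851 promoters of the same length, and the ETS-type sequence CGGAAG in 13.6%. Promoters of 7 members were searched, 9 in all, and CGGAAG was in 0 of them. The promoters of Ctnnb1, Ctnnd1, Jup and Afdn held none of the 3 sequences.

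When the cells with contractile UMIs were left out, 275 control and 349 tomatidine cells remained, and the ratios of Actn1, Vcl and Actn4 were closer to even. Actn1 had a log2 ratio of 0.26 (0.05 to 0.47), from 113 to 136 CPM, Vcl 0.16 (0.00 to 0.31), from 211 to 235 CPM, and Actn4 0.10 (-0.02 to 0.21), from 390 to 417 CPM. The cells with contractile UMIs had held 22.4% of the Actn1 UMIs of the class in the control and 37.9% in the tomatidine library. For Vcl these shares were 22.7% and 31.2%, and for Actn4 19.1% and 29.4%. Afdn, the fourth linker, was further from even than in all endothelial-like cells, at 0.25 (0.09 to 0.40), with 201 and 239 CPM. Ctnnb1 stayed at 0.23 (0.16 to 0.31), with 853 and 1002 CPM, Cdh2 at -0.25 (-0.46 to -0.04), and Cdh5 was at 0.18 (0.06 to 0.31), with 310 and 352 CPM. Ctnna1 (-0.02), Ctnnd1 (-0.07) and Jup (0.01) were near 0. In these cells 0 of 10 members were at least 1.2-fold higher, where 13.5% of 9714 genes were, and 0 were lower, where 10.4% were. Actn1 lay just under the limit. The median was 0.13 over the members and 0.03 over all genes.

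Endothelial-like cells were further sorted by markers of vessel types. Capillary-type cells made up 79.3% of the control and 71.8% of the tomatidine cells, venous-type cells 12.1% and 15.8%, and arterial-type cells 3.79% and 7.12%, with 11 and 28 arterial-type cells. Both libraries together, Vcl was at 612 CPM in arterial-type, 245 CPM in venous-type and 239 CPM in capillary-type cells. Actn1 was at 556, 182 and 126 CPM and Actn4 at 975, 432 and 424 CPM in the same order. Cdh2 ran the other way, with 40.6 CPM in arterial-type and 125 CPM in capillary-type cells, and Ctnnb1 was highest in capillary-type cells, at 960 CPM against 639 CPM in venous-type cells. Jup was at 213 CPM in capillary-type and 117 CPM in venous-type cells, while Cdh5 was at 338 CPM in arterial-type, 381 CPM in venous-type and 329 CPM in capillary-type cells. The 14 control and 21 tomatidine cells of no vessel type held 0 and 4 Cdh5 UMIs.

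The high Actn1, Vcl and Actn4 levels of arterial-type cells were those of the barcodes with contractile UMIs. In the 15 arterial-type cells with such UMIs Actn1 was at 669 CPM (582 to 765), Vcl at 707 CPM (617 to 806) and Actn4 at 1117 CPM (1004 to 1240). In the 24 arterial-type cells without them Actn1 was at 91.0 CPM (36.6 to 188), Vcl at 221 CPM (129 to 354) and Actn4 at 390 CPM (263 to 557), close to the 122, 224 and 408 CPM of the 483 capillary-type cells without them. In the 29 capillary-type cells with contractile UMIs Actn1 was at 157 CPM (128 to 189), an interval that overlapped that of capillary-type cells without them (113 to 132). Vcl was at 362 CPM (318 to 410) there, against 211 to 237 CPM without. Actn4 was at 559 CPM (504 to 618), against 391 to 425 CPM without.

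Within capillary-type cells, 230 control and 282 tomatidine cells, the ratio between libraries was 0.26 (0.19 to 0.34) for Ctnnb1, 0.30 (0.09 to 0.51) for Actn1 and -0.24 (-0.45 to -0.03) for Cdh2. It was 0.13 (-0.02 to 0.28) for Vcl, 0.08 (-0.03 to 0.19) for Actn4 and 0.10 (-0.03 to 0.22) for Cdh5. Weighted to the same mix of vessel types in both libraries, the log2 ratio was 0.14 for Actn1, 0.07 for Actn4 and 0.01 for Vcl, and it was 0.25 for Ctnnb1. The Vcl value rested in part on few arterial-type cells, in which Vcl was at 891 CPM in the control and 562 CPM in the tomatidine library, from 53 and 188 UMIs.

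**Figure D4:**
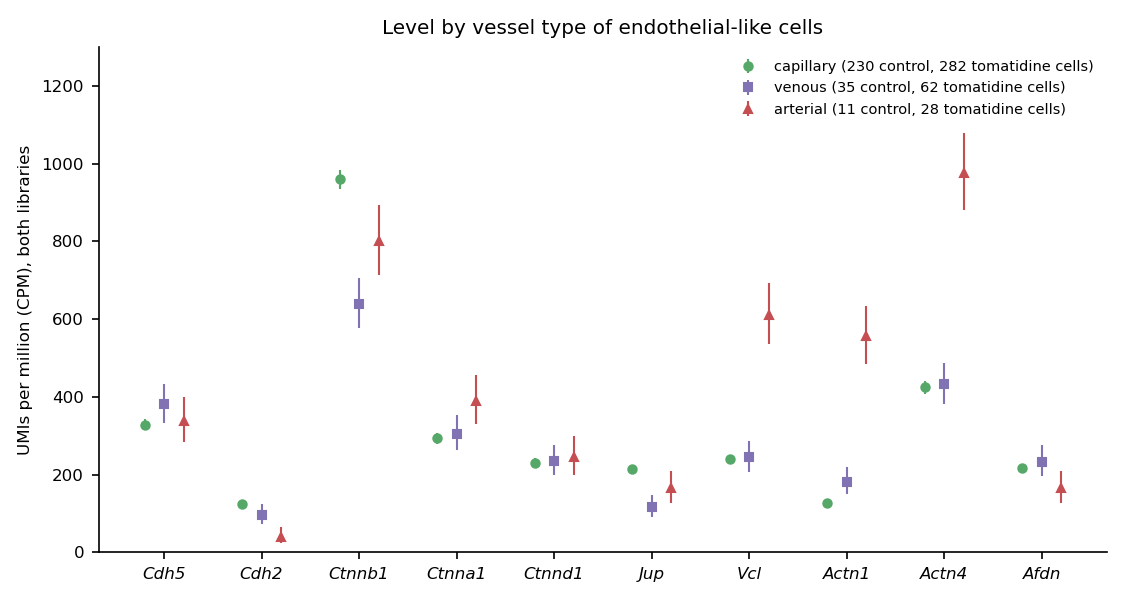
CPM of each gene (vertical axis, from 0) in capillary-type (circles), venous-type (squares) and arterial-type (triangles) endothelial-like cells, both libraries together, with exact Poisson 95% intervals. Actn4, Vcl and Actn1 are highest in arterial-type cells, at 975, 612 and 556 CPM, and Cdh2 is lowest there, at 40.6 CPM.

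Outside the endothelium the number of members past the fold differed between classes. In the glial, ependymal and neuron classes that follow, 9 of the 10 members had at least 100 UMIs, and Cdh5 did not. In astrocyte-like cells 0 members were at least 1.2-fold higher (7.59% of genes) and 0 lower (5.61%), in excitatory neuron-like cells 0 were higher (15.5%) and 0 lower (2.25%), and in interneuron-like cells 0 were higher (11.1%) and 0 lower (3.88%). In microglia-like cells 1 member was higher (15.4%) and 0 lower (8.18%), and in oligodendrocyte-like cells likewise 1 was higher (11.8%) and 0 lower (3.31%). That member was Vcl in both. In oligodendrocyte precursor-like cells 1 was higher (14.2%), Vcl at 1.23-fold, and 2 were lower (11.7%), Jup and Actn1, the latter at 0.781-fold from 97 and 54 UMIs. In ependymal-like cells 0 were higher (10.5%) and 1, Jup, was lower (23.8%). In the thalamic or other subcortical class 2 were higher (25.5%), Afdn and Actn1, and 3 were lower (11.9%), Ctnnb1, Ctnnd1 and Jup. Of these, Ctnnd1 and Jup had positive ratios within both clusters of the class, given below. In border macrophage-like cells only 4 members had 100 UMIs, of which 0 were higher (24.2%) and 1, Ctnna1, was lower (18.3%), from 67 to 36 UMIs.

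Vcl went from 21.4 to 29.9 CPM in microglia-like cells, a log2 ratio of 0.48 (0.06 to 0.90), and from 10.1 to 14.5 CPM in oligodendrocyte-like cells, a log2 ratio of 0.53 (0.23 to 0.82). Vcl was also higher in astrocyte-like cells, by 0.21 (0.11 to 0.31) from 148 to 171 CPM, and in excitatory neuron-like cells, by 0.21 (0.12 to 0.30) from 21.9 to 25.3 CPM. In interneuron-like cells the ratio was 0.03 (-0.19 to 0.24). The 8 smooth muscle genes summed to 3.57 and 16.5 CPM in microglia-like and to 6.87 and 14.9 CPM in astrocyte-like cells, higher in the tomatidine library in both. In oligodendrocyte precursor-like cells their sum was lower in that library, at 6.20 and 4.58 CPM, with a Vcl ratio of 0.30 (-0.08 to 0.68). The part of smooth muscle RNA in the Vcl ratios was not tested.

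In the hippocampal neuron classes, where 0 members passed the fold, some intervals left out 0. In excitatory neuron-like cells Jup was higher in the tomatidine library by 0.24 (0.14 to 0.34), Afdn by 0.19 (0.15 to 0.23), from 123 to 140 CPM, and Ctnnd1 by 0.18 (0.13 to 0.24), from 55.6 to 63.1 CPM, while Ctnnb1 was at -0.11 (-0.14 to -0.09), from 317 to 293 CPM. In interneuron-like cells Ctnnb1 had the other sign, 0.21 (0.14 to 0.29), from 213 to 247 CPM. There Afdn was at 0.21 (0.11 to 0.30) and Cdh2 at -0.23 (-0.33 to -0.14). Summed over the class, Afdn was thus higher in both neuron classes and Cdh2 lower in interneuron-like cells. Cdh2 in excitatory neuron-like cells was at -0.01 (-0.04 to 0.02). Over all genes with at least 100 UMIs the median log2 ratio was 0.05 in excitatory neuron-like cells, with quartiles of -0.04 and 0.17. In interneuron-like cells it was 0.04, with quartiles of -0.06 and 0.14. The excitatory class pooled clusters in unequal parts. That led by Igfn1 had 426 control and 672 tomatidine cells, and that led by Nhlh1 had 1297 and 1012. The interneuron clusters led by Crhbp and by Vip had 346 and 291 and 210 and 225 cells. The part of these mixes in the ratios was not tested.

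In meningeal-like cells 0 members were at least 1.2-fold higher (13.1% of genes) and 2 were lower (17.9%), Actn4 with -0.32 (-0.54 to -0.10), from 203 to 162 CPM, and Actn1 with -0.30 (-0.68 to 0.08), from 71.6 to 58.1 CPM. Both alpha-actinins thus had the opposite sign to that in endothelial-like cells. Cdh5, whose second class this was, had 0.13 (-0.13 to 0.41).

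Jup was lower in the tomatidine library in oligodendrocyte precursor-like cells, from 106 to 67.8 CPM with a log2 ratio of -0.65 (-0.94 to -0.37), and in ependymal-like cells, from 159 to 110 CPM with -0.53 (-0.76 to -0.31). In oligodendrocyte-like cells, where it was highest, the ratio was -0.07 (-0.12 to -0.02). The 9 oligodendrocyte markers, all present, moved with Jup in those classes. Their sum went from 12675 to 6710 CPM in oligodendrocyte precursor-like cells and from 14934 to 9704 CPM in ependymal-like cells, and their part in the Jup ratios was not tested.

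Among members with at least 100 UMIs, the largest ratio in the classes compared was that of Afdn in the thalamic or other subcortical neuron-like class, 0.79 (0.70 to 0.88), from 68.1 to 117 CPM. This class was made of 2 clusters in unequal parts. The cluster led by Lmod2, Abhd12b and Gbx2 had 636 control and 405 tomatidine cells, and that led by Barhl2, Pou4f2 and Barhl1 had 199 and 688. Within them the Afdn ratio was 0.38 (0.19 to 0.56), from 40.3 to 52.3 CPM, and 0.11 (-0.00 to 0.22), from 134 to 144 CPM. Ctnnb1 had a ratio of -0.42 (-0.45 to -0.38) over the class, and -0.15 (-0.20 to -0.10) and -0.11 (-0.18 to -0.05) within the clusters. Actn1 was at -0.03 (-0.23 to 0.16) in the cluster led by Lmod2 and at 0.46 (0.27 to 0.65) in that led by Barhl2. Ctnnd1 and Jup were each at -0.33 over the class, with the sign turned within the clusters. Ctnnd1 was at 0.20 (0.10 to 0.31) in the cluster led by Lmod2 and 0.13 (-0.05 to 0.30) in that led by Barhl2. Jup was at 0.22 (0.10 to 0.34) and 0.05 (-0.16 to 0.26) in the same order.

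In mural-like cells the counts were few. Actn1 was at 120 CPM (80.7 to 171) in the control and 580 CPM (487 to 685) in the tomatidine library, from 30 and 138 UMIs, and Actn4 at 410 and 757 CPM. Beside this the 8 smooth muscle genes summed to 773 CPM with 1 gene at 0 in the control and to 11049 CPM with 0 at 0 in the tomatidine library, whereas the 6 pericyte genes stood at 21739 and 20525 CPM. A single tomatidine cell of 27430 UMIs held 66.7% of the Actn1 UMIs and 78.6% of the Acta2, Cnn1 and Pln UMIs of its class. Without the cell that held most UMIs of the gene in each library, Actn1 was at 106 CPM (68.3 to 156) and 219 CPM (160 to 292), Vcl at 592 and 855 CPM and Actn4 at 448 and 523 CPM.

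**Figure D5:**
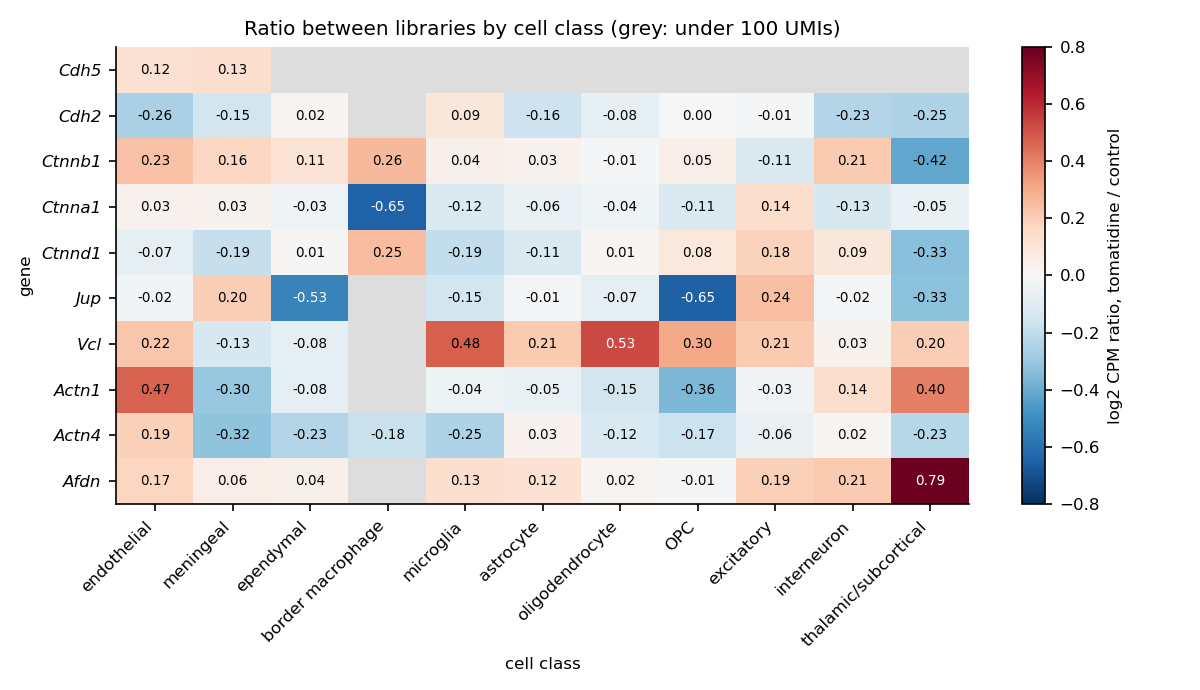
Log2 CPM ratio of the tomatidine over the control library for each gene (rows) in each class (columns), printed in the cells and coloured from -0.8 (blue) to 0.8 (red); grey cells had under 100 UMIs in both libraries together. Vcl is positive in 8 of the 10 classes shown for it, Jup is lowest in OPC (oligodendrocyte precursor-like) cells at -0.65, and Afdn in the thalamic or other subcortical class has the highest value, 0.79.

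The wider junction was described with a list of 51 further genes, of which 50 were measured and 40 had at least 100 UMIs in endothelial-like cells. Past the fold, 7 of them were higher in the tomatidine library and 2 lower. Their median log2 ratio was 0.08, beside the backgrounds of 12.7% and 10.2% and the median of 0.02 given above. By role, 5 of 17 other actin linkers and 2 of 3 nectins were higher, and 1 of 4 other cadherins and 1 of 10 endothelial junction partners were lower. Of the 6 other catenins and binding partners 0 passed the fold, and their median was 0.07. The highest ratios were those of Flna, which codes for the actin crosslinker filamin A, with 0.80 (0.69 to 0.92), from 271 to 472 CPM, of Ajuba, a LIM protein that binds alpha-catenin, with 0.44 (0.01 to 0.88), and of the adhesion molecule Nectin2 with 0.40 (0.04 to 0.78). The lowest were those of Cdh10 with -0.59 (-1.07 to -0.10), of Kdr, the main VEGF receptor of endothelium, with -0.27 (-0.38 to -0.15), and of Lmo7 with -0.19 (-0.42 to 0.04). Without the cells with contractile UMIs Flna was at 0.21 (0.04 to 0.39), from 173 to 201 CPM, and Kdr at -0.19 (-0.31 to -0.07). Past the fold were then 5 genes with a higher and 2 with a lower level, and the median was 0.09, beside 13.5% and 10.4% of all genes and their median of 0.03 in those cells.

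The genes whose levels ran most like those of a member were sought over 22 profiles, 11 classes in each library, by Pearson's r of log2(CPM + 1). The profiles share their libraries and differ in depth, so r is a description. For Cdh5 they were A4galt, Tinagl1 and Hic1 (r from 0.97 to 0.98), for Vcl Cdc42ep4, Erbb2 and Mcc (all 0.96), for Actn1 Anxa11, Rph3al and Tnks1bp1 (0.87 to 0.88), for Jup Ndrg1, Tmem98 and Gng11 (0.95 to 0.96) and for Cdh2 Enah, Pcdh10 and Fut9 (0.92 to 0.97). Among the members themselves Ctnna1 and Jup (r = 0.83) and Ctnna1 and Ctnnd1 (r = 0.81) were the closest pairs, and Cdh2 had a negative r with Cdh5 (-0.36) and Actn4 (-0.39).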

How the data were processed

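The authors aligned and counted the reads of the fixed-RNA probe libraries, per the labels with Cell Ranger 8.0.0 (the file headers name an earlier version) on mm10, and deposited filtered matrices of UMI counts per gene and cell. The 10 genes, the gene lists and the split of endothelial cells were chosen with earlier results of these data known. Cells with at least 500 UMIs, more than 250 genes, complexity above 0.8 and under 20% mitochondrial UMIs were kept. Scrublet (scanpy 1.11.5) called 0 control and 2 tomatidine cells, so the 2% of cells with the highest scores were removed from each library (308 and 296), and doublets may remain. Libraries were integrated in Seurat 5.3.0 (R 4.3.3) by reciprocal PCA, with 30 components and Louvain resolution 0.8, without 74 genes (members, split genes and pathway list), which gave 34 clusters. The class whose markers had the highest mean log2 fold named a cluster when at least 3 of those markers were raised. No other class could have more markers among the 10 leading genes of the cluster. A cluster with Sox14 and Pax7 among its leading genes was left unnamed. Mural-like and endothelial-like cells came from the same cluster of 790 cells. Its mean log2 marker fold was 7.91 for the endothelial class and 7.89 for the next. In it a cell with at least 2 more mural than endothelial markers detected was called mural-like, and every other cell endothelial-like. These naming rules were revised after the clusters had been seen, and 9 clusters stayed unnamed.

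UMIs were summed per class and library. With 1 library per group there was no test. Ratios have exact conditional binomial, levels exact Poisson and shares exact binomial 95% intervals (scipy 1.17.1), which cover counting error only. The code was tested on simulated data. Named were all 10 members, the split genes, class markers, the 3 highest and 3 lowest genes of the pathway list with at least 100 UMIs, and the 3 genes with the highest Pearson correlation to a member. Medians in the text are over members with at least 100 UMIs. Alternatives changed the cell filter, doublet removal, integration, resolution, endothelial gate, scaling (edgeR 4.0.16 TMM factors or median of ratios), averaging, thinning, pericyte UMIs, vessel mix and split. Levels without the cell that held most UMIs of a gene were added after seeing the data.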

Additional observations from a re-analysis of the deposited data

How the results depend on the processing

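With 10 genes and 1 pooled library per group, depth set the width of the intervals and no value could be checked against a replicate. No paired analysis was possible because each group had a single library. Of 14 alternatives for endothelial-like cells, the median log2 ratio over the 10 genes, 0.15, became 0.27 with no cell filter, 0.37 without cells with pericyte UMIs and -0.015 with a gate on endothelial markers, which kept 62 control and 123 tomatidine cells. The number of genes at least 1.2-fold higher, 1, became 5 with no cell filter, 6 without cells with pericyte UMIs, and 0 with both sets of the study's cell thresholds or with the same vessel mix. The number lower, 0, became 2 with the marker gate and 1 with both sets of thresholds, no cell filter, TMM factors, median of ratios, the mean over cells, or without cells with pericyte UMIs. With no filter 8 control cells of up to 154386 UMIs joined the class. By gene, Cdh5 was at -0.19 with the marker gate and Cdh2 at 0.30 without cells with pericyte UMIs, both with the sign reversed. These smaller groups of cells held few UMIs, as given above, so counting error was larger there. Actn1 was positive under all 14, from 0.12 to 0.71, and Ctnnb1 from 0.08 to 0.33.

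Without cells with contractile UMIs, the median, 0.13, was -0.047 with the marker gate and 0.40 without cells with pericyte UMIs. The number higher, 0, became 4 with no cell filter, 3 with the mean over cells, 2 when thinned to 1500 UMIs, 7 without cells with pericyte UMIs, 1 with the same vessel mix and 2 with the split on 8 contractile genes. The number lower, 0, became 3 with the marker gate and 1 with both sets of thresholds, no cell filter, TMM factors, median of ratios, the mean over cells or a split at 2 contractile UMIs. The sign reversed for Cdh5 (-0.17) and Vcl (-0.046) with the marker gate and for Cdh2 (0.31) without cells with pericyte UMIs. Few UMIs were left in these smaller groups of cells here too. The median in the thalamic or other subcortical class, -0.14 over genes with at least 20 UMIs, was 0.15 with both sets of thresholds. The difference in the share of endothelial-like cells with a Jup UMI, -8.11 percentage points, was 1.19 at 3000 UMIs a cell. The cause of these shifts was not tested.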
